A study of Mus musculus with 144 samples.

Results

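The 39 genes described here, from Cdk1 and its cyclins to the motors of the spindle and the proteins of cytokinesis, carry out mitosis. They were chosen by gene symbol from a list of known mitotic genes, and a gene was measured by the probe sets to which the array annotation gives that symbol alone. Of the 39 members, 38 were measured, by 83 of 34945 probe sets with a single gene, among 18193 genes in all. Ccnb1 was not analysed here. For the 25 members with more than 1 probe set, those marked as prone to cross-hybridize were passed over. Of the rest, the one with the highest mean over all arrays was used. The label was checked against 64 other mitotic genes that are no members.

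The mice of this study were burned, or underwent trauma-hemorrhage, in which tissue is injured and blood is drawn off, or were given lipopolysaccharide (LPS, a bacterial cell-wall product), and each arm had sham mice at the same times. White blood cells from cardiac puncture and spleen cells were taken 2 hr, 1 day, 3 day and 7 day after burn or trauma-hemorrhage, and white blood cells alone 2 hr and 1 day after LPS, with lysis of red cells in both tissues. Each of the 36 groups had 4 arrays of individual mice, 144 arrays in all, and the 4 arrays of a group limit the precision. The labels give the strain C57BL/6J for the LPS arm and no strain for the others, and state no genotype, age, burn size or LPS dose. Blood arrays described as trauma-hemorrhage carry the word burn in their titles, and there the description was followed, while the descriptions of the arrays titled burn spleen name the trauma-hemorrhage model, and there the title was followed.

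Mitosis is driven by Cdk1, a kinase that acts with cyclins A and B, and it ends when the anaphase-promoting complex marks cyclin B and other proteins for destruction. The genes of this programme are transcribed together late in the cell cycle, and they are low in resting cells, so that their RNA marks tissue that holds dividing cells. In mice, unlike in adult humans, the spleen keeps a store of blood-forming cells in its red pulp, which can make red cells and granulocytes after blood loss or infection. In RNA from mixed cells, a larger number of dividing cells and more RNA per cell cannot be told apart.

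Signals are the deposited array values, except that each LPS array was scaled to a trimmed mean of 500, that of the other arrays. A log2 change is the mean of log2(signal + 32) in the injured or treated group minus that in the sham group of the same model, tissue and time, with a standard error (SE), and the words rose and fell are kept for members whose adjusted p in limma, taken over all 18193 genes, lay under 0.05. Array medians ranged from 53.1 to 224 for blood, from 57.8 to 308 for spleen and from 23.6 to 29.4 for the LPS arm as deposited. Spiked controls stand high where an array is dim, and by a limit of 2 times the set's median 8 blood and 7 spleen arrays were dim, among them 3 of 4 trauma-hemorrhage blood arrays at 3 day and all 4 at 7 day. The library labelled LPS sham 2 hr replicate 4 went against its label: Cxcl10, an inducible chemokine gene, read 4907 there, against 159 to 183 on the other sham arrays of its group and 2593 to 4423 on the LPS arrays. In spleen, the B cell and T cell markers were present on every array, with summed signals of 14461 to 70967 over 9 B cell genes and of 20081 to 63716 over 9 T cell genes.

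The promoters of many mitotic genes hold the cell-cycle homology region, TTTGAA in its usual form, through which the MuvB complexes act, and CCAAT boxes, which bind NF-Y. RefSeq promoter windows (build GRCm38.p6) of 250 bases before to 50 after the start were found for 34 members, in 36 windows, and searched on both strands. TTTGAA was in 77.8% of the members' windows, against 17.9% of all 32851 windows, and CCAAT in 77.8% against 37.4%. Both motifs were in 69.4% of the members' windows, against 7.0% of all windows. The TATA motif TATAAA was in 2.8% of the members' windows and in 13.6% of all windows. Of the 36 TTTGAA matches in the members' windows, 27 began within 50 bases of the start, and in 1 window the matches of TTTGAA and CCAAT overlapped. In the 64 other mitotic genes, 44.6% of 56 windows held TTTGAA, and in the genes of the G1/S step and of DNA replication, which are transcribed earlier in the cycle, 17.8% of 45 windows held it. CCAAT was in 66.1% and 57.8% of the windows of these lists, and both motifs in 30.4% and 8.9%. A match is a run of letters and does not show that a factor binds there. The 6 sequences below are the 150 bases before the start of members with both motifs in that stretch. All 6 genes rose in the spleen at 7 day after burn and at 3 day and 7 day after trauma-hemorrhage. They are shown for that reason, and because they come from several steps of mitosis, some of them from the same step. Capitals mark TTTGAA and CCAAT or their reverse complements, and each is written 5′ to 3′ on the strand of its gene.
Cdk1, chr10:69352913-69353062, minus strand: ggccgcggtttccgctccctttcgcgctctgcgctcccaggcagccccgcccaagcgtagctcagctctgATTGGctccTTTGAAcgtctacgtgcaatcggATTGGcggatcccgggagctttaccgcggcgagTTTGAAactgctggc
Ube2c, chr2:164769779-164769928, plus strand: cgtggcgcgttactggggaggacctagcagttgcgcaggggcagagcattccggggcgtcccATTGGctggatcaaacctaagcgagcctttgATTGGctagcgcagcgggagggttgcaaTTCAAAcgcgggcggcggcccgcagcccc
Cdc20, chr4:118437344-118437493, minus strand: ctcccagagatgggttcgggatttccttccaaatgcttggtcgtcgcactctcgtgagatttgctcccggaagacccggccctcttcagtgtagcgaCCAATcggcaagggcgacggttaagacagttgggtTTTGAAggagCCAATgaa
Mki67, chr7:135716380-135716529, minus strand: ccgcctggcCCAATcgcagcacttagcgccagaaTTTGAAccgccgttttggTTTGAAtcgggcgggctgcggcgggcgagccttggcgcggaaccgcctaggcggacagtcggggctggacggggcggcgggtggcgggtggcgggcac
Top2a, chr11:99024190-99024339, minus strand: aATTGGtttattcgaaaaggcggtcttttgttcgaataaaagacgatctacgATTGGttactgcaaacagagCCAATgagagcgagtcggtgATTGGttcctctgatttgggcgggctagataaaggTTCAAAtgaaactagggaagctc
Kif11, chr19:37376232-37376381, plus strand: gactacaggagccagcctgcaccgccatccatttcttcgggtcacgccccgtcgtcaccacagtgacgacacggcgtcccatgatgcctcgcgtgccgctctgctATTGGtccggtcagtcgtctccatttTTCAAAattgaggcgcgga
The nearest TTTGAA began 15 bases before the start in Cdk1, 18 in Cdc20, 19 in Kif11, 23 in Top2a and 29 in Ube2c, and 98 bases before it in Mki67. Nuf2, Birc5, Nusap1, Mad2l1 and Melk, which also rose late in the spleen, had neither motif in their windows. The pair of motifs was thus in most members' windows and not in those of all members that rose.

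At 7 day after burn, nearly the whole programme was higher in the spleen. Of the 38 members, 37 rose and none fell, where 6.3% of all genes rose, and the median log2 change was 2.66, against a median of -0.03 over all genes. Every burn array lay above every sham array for 37 members, as for 10.1% of all genes. The genes are given in the order of their roles, starting with the cyclins and kinases that drive the cell into mitosis.

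Cdk1 read 3284, 2946, 4071 and 1353 on the burn spleen arrays of day 7, and 155, 275, 279 and 176 on the sham arrays. The groups did not overlap, and the lowest burn array was replicate 4, as it was for most members. The log2 change of Cdk1 was 3.47 ± 0.42 (SE), an 11.1-fold difference with an adjusted p of 3.65e-08. Ccnb2, the cyclin B that was measured, read 2191, 2088, 3029.6 and 1104 after burn and 132, 195, 162 and 105 in the shams (3.51 ± 0.43, adjusted p 3.99e-08). All 8 members of this role rose: Ccna2, the cyclin of S phase and early mitosis, by 3.26, Aurka, the kinase of the spindle poles, by 2.56, Aurkb, the kinase of the chromosomal passenger complex, by 2.42, Plk1, a kinase of mitotic entry and exit, by 2.17, Melk, a kinase of dividing cells, by 2.78, and Nek2, a kinase of centrosome separation, by 1.10 on the log2 scale.

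The spindle checkpoint holds back anaphase until every chromosome is attached, and the anaphase-promoting complex is its target. Ube2c, the ubiquitin-conjugating enzyme of that complex, read 5284, 5670.4, 6881 and 2973 after burn and 302, 401, 422 and 289 in the shams. This was a 13.2-fold difference with no overlap (log2 change 3.72 ± 0.46, adjusted p 3.65e-08). Bub1b, the checkpoint kinase-like protein BubR1, read 774, 609.8, 1157 and 741 after burn and 164, 168, 225 and 234 in the shams (1.87 ± 0.33, adjusted p 2.28e-05). The whole group of 6 rose, Bub1, the kinase partner of Bub1b, by 2.71, Cdc20, the activator of the complex, by 1.98, Mad2l1, the inhibitor of Cdc20, by 1.87, and Ttk, the kinase at the head of the checkpoint, by 1.87.

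The kinetochore ties the chromosome to the spindle. Nuf2, a subunit of its outer Ndc80 complex, had the smallest p of all members. It read 1185, 1017, 1740 and 751 after burn and 90.8, 127, 129 and 35.1 in the shams, a 9.57-fold difference (log2 change 3.26 ± 0.38, adjusted p 1.29e-08). Ndc80, its partner, rose by less: it read 449.5, 388, 544 and 253 after burn and 160.4, 128, 158 and 177 in the shams (1.19 ± 0.31, adjusted p 0.00542). Spc25, the third measured subunit of that complex, rose by 3.27. Birc5, survivin of the chromosomal passenger complex, read 13478, 14225, 12685 and 9173 after burn and 994, 1238, 1194 and 1457 in the shams (3.30 ± 0.52, adjusted p 2.81e-06). The other members of this role rose too, Cdca8, borealin of the same complex, by 3.29, Cenpf, a large protein of the outer kinetochore, by 2.61, Cenpe, a kinetochore motor, by 2.46, and Cenpa, the histone of the centromere, by 1.60.

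**Figure D1:**
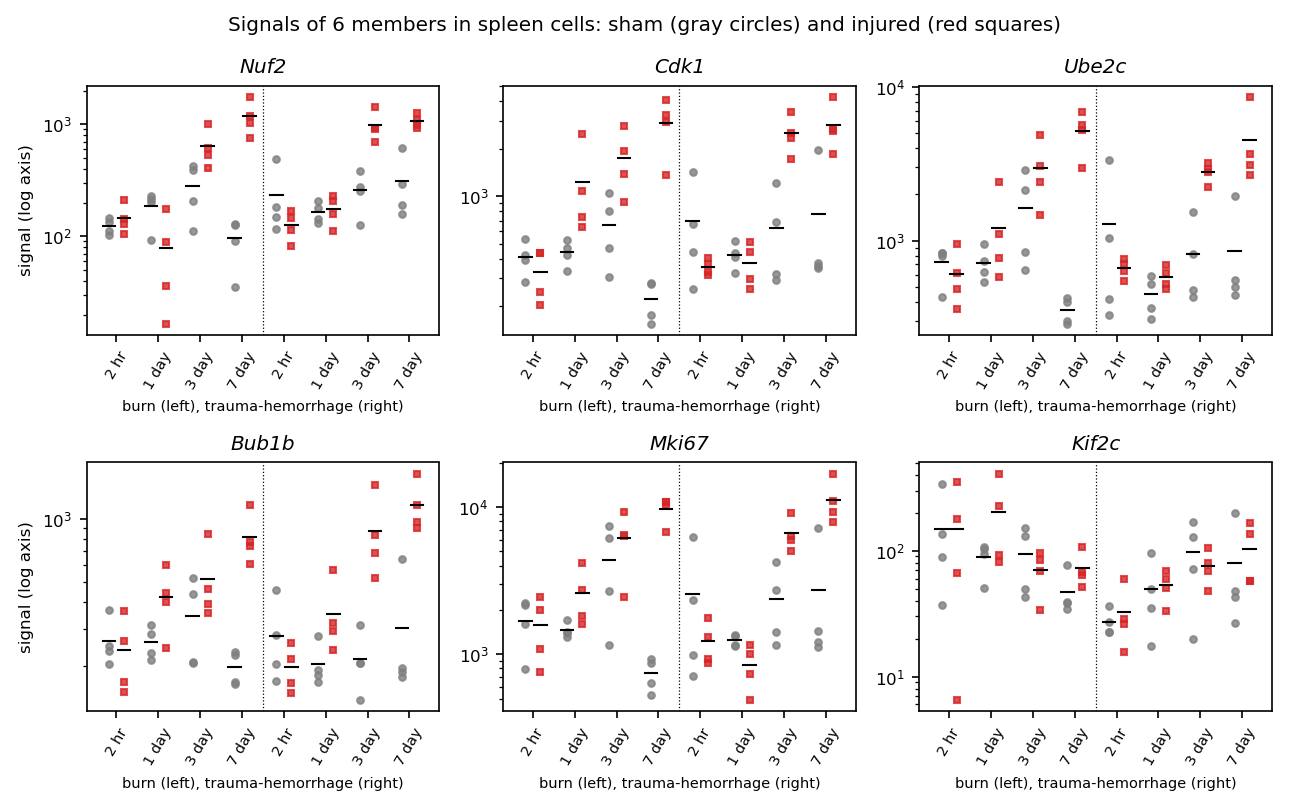
Array signals (vertical log axes) of 6 members in spleen cells, with the burn model on the left and the trauma-hemorrhage model on the right of each panel at 2 hr, 1 day, 3 day and 7 day; gray circles are sham arrays, red squares are injured arrays, and black lines are means of 4 arrays. Nuf2, Cdk1, Ube2c, Bub1b and Mki67 lie above the shams on all 4 burn arrays at 7 day, while the arrays of Kif2c overlap at each time.

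Among 10 motors and spindle proteins, 9 rose. Kif11, the motor that pushes the spindle poles apart, read 1830.2, 1483, 3007 and 1176 after burn and 226, 201, 167 and 143 in the shams (3.07 ± 0.48, adjusted p 2.57e-06). Prc1, which bundles the microtubules of the central spindle, read 6173, 5378, 6929.7 and 4068 after burn and 587, 665, 711.5 and 759 in the shams (2.97 ± 0.47, adjusted p 3.4e-06). Both genes showed no overlap between the groups. Hmmr, a microtubule-binding protein of the spindle, had a log2 change of 3.77, near the largest of the list, and Tpx2, the activator of Aurka, of 2.72. Kif2c, a motor that takes microtubules apart at the centromere, was the 1 member that did not pass. It read 51.9, 107, 67.9 and 64.3 after burn and 39.1, 76.4, 34.7 and 38.5 in the shams (0.41 ± 0.47, adjusted p 0.778). The probe sets of Kif2c disagreed: the 3 that were not used had log2 changes of 1.46, 0.49 and 2.20, the last from a probe set marked as prone to cross-hybridize.

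The 4 members of cytokinesis and mitotic entry rose, with Cdca3, a trigger of mitotic entry, at 3.77 and Racgap1, a part of the central spindle complex, at 1.39. Anln, anillin of the contractile ring, read 681.5, 472, 739.6 and 303 after burn and 22.4, 58.9, 16.7 and 75.8 in the shams (2.95 ± 0.44, adjusted p 9.7e-07). Its sham signals lie near the offset of 32, so the log2 change understates the quotient of the signals. Mki67, the surface coat of mitotic chromosomes and the usual stain for dividing cells, read 10817, 10772, 10247 and 6719.6 after burn and 526, 874, 929.9 and 641 in the shams (3.65 ± 0.48, adjusted p 1.34e-07). Top2a, the enzyme that untangles sister chromatids, read 5833, 5223, 6198 and 3408 after burn and 737, 772, 1054 and 945 in the shams (2.49 ± 0.37, adjusted p 1.3e-06). Neither gene overlapped between the groups.

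Between 35 and 37 members rose when any single array was left out. Within the hybridization days, each with 2 arrays a group, the members' median change was 2.73 on the first day and 2.62 on the second, with 35 and 12 members called. Of the 42 other probe sets of the members that rose, 40 moved the same way, with a median log2 change of 1.62 over the 42. Their sizes differed from those of the probe sets used. Cdca3 changed by 0.20 and 0.03 on its others (3.77 on the one used), Spc25 by 0.09 (3.27) and Aurka by 0.05 (2.56). Some others changed by more, as in Cenpe with 2.81 (2.46 on the one used). The sham group of day 7 was low among its kind: the median of the 38 members on its arrays was 7.55 to 7.77 in log2(signal + 32), against 7.62 to 9.14 on the burn-model sham arrays of the earlier times. The burn arrays of day 7 ranged from 9.60 to 10.7 on the same measure.

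At 3 day after trauma-hemorrhage the programme was higher in the spleen as well. Of the 38 members, 29 rose and none fell, where 3.36% of all genes rose, and the median log2 change was 1.75 (-0.07 over all genes). Every injured array lay above every sham for 31 members, as for 6.54% of all genes. Bub1b had the smallest p, with 523, 839, 683 and 1435 after injury and 205, 138, 205 and 313 in the shams (1.82 ± 0.33, adjusted p 0.000193). Mad2l1 read 1265, 1618, 1504 and 2899 against 639, 459, 545 and 996 (1.41 ± 0.27, adjusted p 0.000486), and Bub1 841, 784, 706 and 1529 against 279.6, 62.2, 96.5 and 579 (2.12 ± 0.42, adjusted p 0.000684). The groups did not overlap for these 3 checkpoint genes, replicate 4 was the highest of both groups, and 5 of the 6 genes of the checkpoint group rose.

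Among genes of the other steps, Cdk1 rose by 2.12, Ccnb2 by 2.00, Birc5 by 2.07, Kif11 by 2.01, Prc1 by 2.01, Top2a by 1.75 and Mki67 by 1.62 on the log2 scale, while Ndc80 (0.45, adjusted p 0.545) and Anln (1.00, adjusted p 0.207) did not pass. Mki67 read 6620.2 ± 1754 (SD, n = 4) after injury and 2376 ± 1399.7 in the shams. By role, 6 of 8 cyclins and kinases, 7 of 8 centromere and passenger genes, 7 of 10 motors and spindle proteins, 2 of 4 cytokinesis genes and both chromosome genes rose. Ttk, Kif23, a motor of the central spindle, Kif2c, Melk, Nek2, Nusap1, a microtubule bundler, and Racgap1 were the others that did not pass. The count rested in part on single arrays: 18 members rose without trauma-hemorrhage replicate 4 and 19 without sham replicate 2. Within the hybridization days the median change was 1.82 and 1.59, with 26 and 0 members called.

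At 7 day after trauma-hemorrhage 32 of the 38 members rose and none fell, where 3.93% of all genes rose, with a median log2 change of 1.94 (-0.04 over all genes). For 26 members, and for 3.99% of all genes, every injured array lay above every sham. Bub1b read 899.9, 958, 1631 and 1157 after injury and 194, 178, 188 and 643 in the shams (2.00 ± 0.33, adjusted p 8.46e-05). Aurka read 772, 526, 1057 and 653 against 47.3, 92.1, 70.5 and 429 (2.37 ± 0.39, adjusted p 8.46e-05). Tpx2, which activates Aurka on the spindle, read 3574, 2186, 3205 and 2471 against 482, 366, 534 and 1799 (2.06 ± 0.36, adjusted p 0.000134).

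In each of these 3 genes the groups did not overlap, and sham replicate 4 stood far above the other shams. Mki67 rose by 2.45, Birc5 by 2.45, Ccnb2 by 2.21, Cdk1 by 2.21, Prc1 by 2.19, Top2a by 1.94, Kif11 by 1.84 and Anln by 1.49. Ndc80 (0.89, adjusted p 0.0861), Cenpe, Kif20a, a motor of the late spindle, Kif23, Kif2c and Ttk did not pass. The number that rose was 26 to 35 when 1 array was left out and 20 in a fit of the 8 arrays alone. On the hybridization days the median change was 2.20 and 1.69, with 28 and 0 members called.

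**Figure D2:**
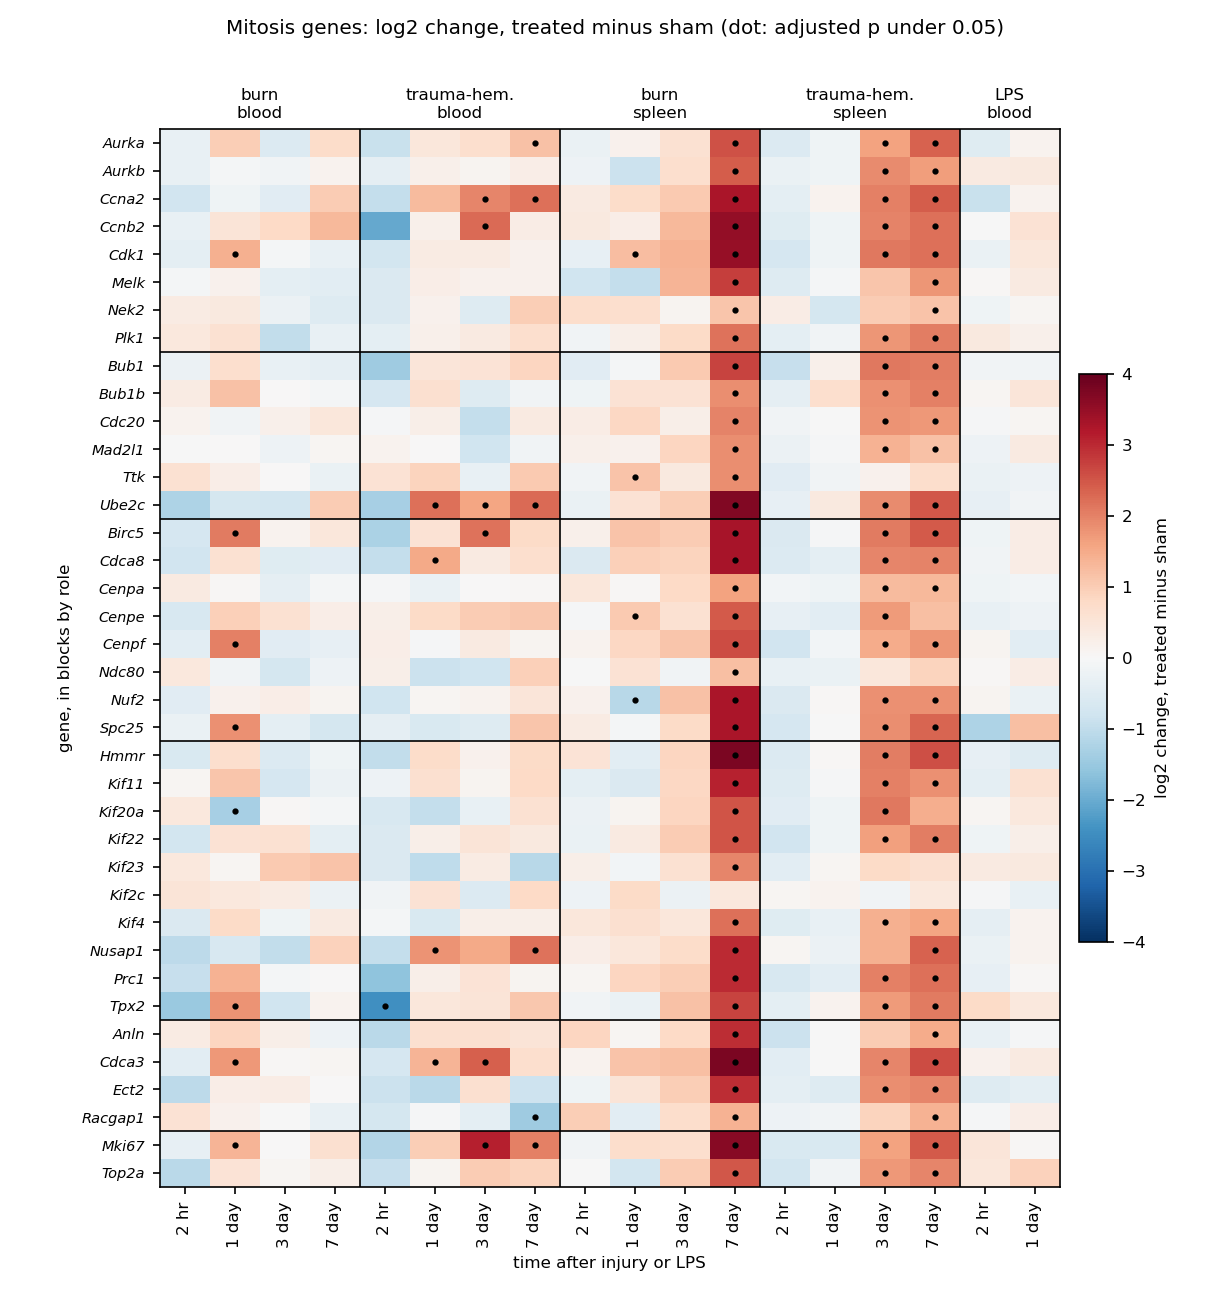
Log2 change (colour, treated minus sham, n = 4 arrays a group) of the 38 members, in blocks by role, in each of the 18 comparisons with sham; a dot marks an adjusted p under 0.05 in limma. Most dots stand in 3 spleen columns, with 37 members at 7 day after burn, 29 at 3 day and 32 at 7 day after trauma-hemorrhage.

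The calls of the injuries overlapped. All 32 that rose 7 day after trauma-hemorrhage were among the 37 that rose 7 day after burn, and 27 rose in these comparisons and at 3 day after trauma-hemorrhage too. With 37 of 38 members called after burn, an overlap of this size says little. Cenpe, Kif20a, Kif23, Ndc80 and Ttk rose at 7 day after burn and did not pass at 7 day after trauma-hemorrhage. Each comparison had sham arrays of its own. Over the 38 members, the log2 changes at 7 day after burn and after trauma-hemorrhage went together (Pearson's r 0.83, Spearman's rho 0.83, a description over genes that share arrays). The change was larger after burn for 35 members, by a median of 0.84. The difference between the injuries was tested over the 4 times together and not at 7 day alone. In that limma F test only Nuf2 passed (adjusted p 0.0487), where 13.8% of all genes did. Nuf2 passed in neither a fit with hybridization day as a block nor one with an offset of 100, while 0 to 4 members passed when 1 array was left out. The log2 changes of Nuf2 were 0.17, -1.12, 1.16 and 3.26 at the 4 times after burn and -0.58, 0.06, 1.84 and 1.83 after trauma-hemorrhage. The injured arrays of day 7 reached like levels, with a members' median of 9.60 to 10.7 after burn and 9.86 to 10.9 after trauma-hemorrhage, while the shams ranged from 7.55 to 7.77 and from 8.002 to 9.57.

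**Figure D3:**
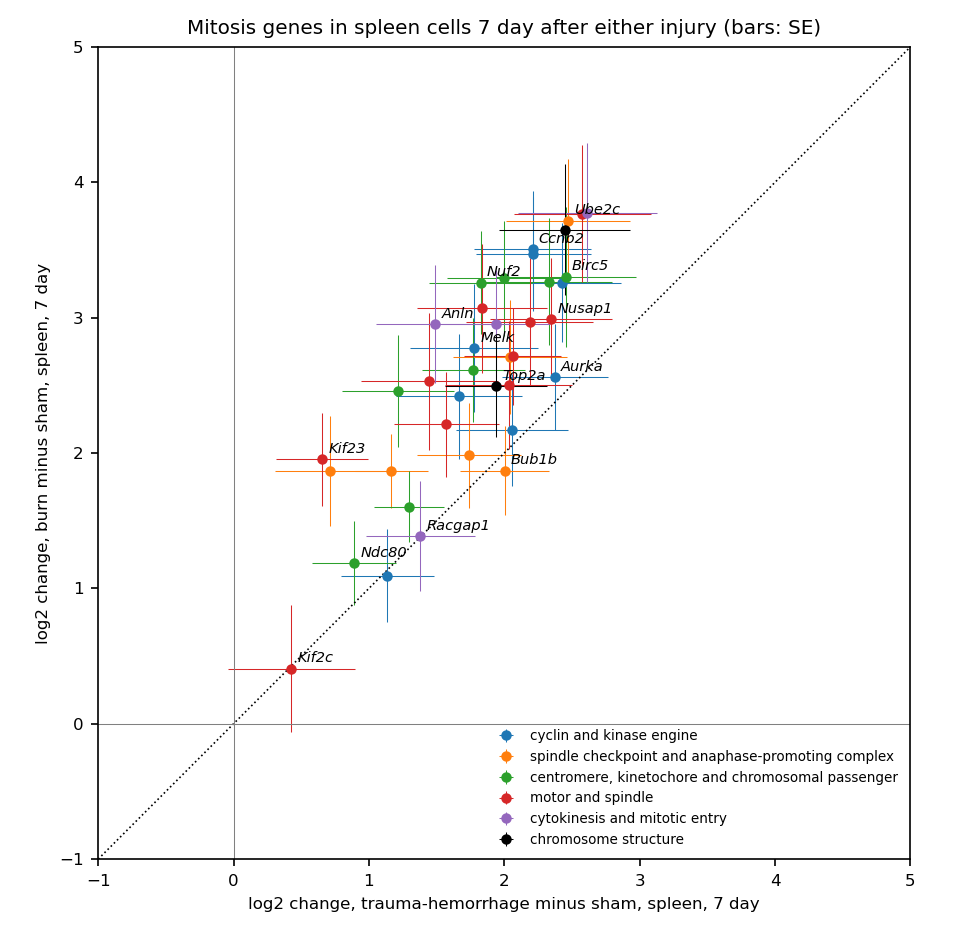
Log2 change of each of the 38 members in spleen cells at 7 day after burn (vertical) against that at 7 day after trauma-hemorrhage (horizontal), with bars of 1 SE, colours by role and a dotted line of equal change. Of the members, 35 lie above the line, and Kif2c lies nearest to 0 on both axes.

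The earlier times in the spleen gave few calls. At 2 hr, no member passed after burn (4 arrays a group, 3.38% of all genes called in either direction) or after trauma-hemorrhage (2.62%), and 2 members had an unadjusted p under 0.05 in each, as did 16.1% and 9.6% of all genes. The changes at 2 hr after trauma-hemorrhage leaned down, with medians of -0.36 to -0.67 by role. Within the hybridization days the members' median change was -0.01 and -0.89. Sham replicate 4 of that group had a members' median of 9.53, against 7.76 to 8.39 on the other shams. At 1 day after trauma-hemorrhage none passed either (0.572% of all genes), with 2 members at an unadjusted p under 0.05, and the members' median change was -0.13. At 1 day after burn, 44.2% of all genes were called and the median gene shifted by 0.24, and 3 members rose (23.7% of all genes) and 1 fell (20.5%). For 5 members every burn array lay above every sham, as for 12% of all genes. Cdk1 read 736, 1076, 637 and 2473 after burn and 469, 529, 423 and 337 in the shams (1.23 ± 0.42, adjusted p 0.0159). Ttk read 334, 468, 344 and 160.2 against 228, 133, 80.4 and 85.4 (1.14 ± 0.41, adjusted p 0.0199), and Nuf2 16.6, 88.8, 36.2 and 174 against 91.8, 229, 201 and 215 (-1.12 ± 0.38, adjusted p 0.0135). Only for Cdk1 of these 3 did the groups stay apart, and 3 of the 4 burn arrays were dim. Cenpe rose by 1.06 there. In the same samples 22 of 64 other mitotic genes and 1 of 19 erythroid precursor genes rose, and 8 of 9 B cell and 8 of 9 T cell genes fell. The number called at 1 day was 2 without burn replicate 2 or without sham replicate 4, 7 in a fit of the 8 arrays alone, 8 after quantile normalization and 11 with the mean of all probe sets.

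At 3 day after burn no member passed, where 0.324% of all genes did. The changes nonetheless leaned one way: 36 of 38 were positive, with a median of 0.84, 17 members had an unadjusted p under 0.05 (7.82% of all genes), and for 5 members every burn array lay above every sham, as for 3.55% of all genes. None of the 64 other mitotic genes passed. The ratio of the 3′ to the 5′ Gapdh probe sets, a sign of RNA quality, was 1.89 to 2.13 after burn and 2.27 to 3.21 in the shams, with no overlap, and its part was not tested. Cdk1 had the largest change, with 2795, 1373, 922 and 1922 after burn and 466, 801, 1042 and 308 in the shams (1.403 ± 0.424, adjusted p 0.179). The third burn array lay below the highest sham. The effect of burn differed between the times for 36 members (36.2% of all genes), all but Kif2c and Nek2, and that of trauma-hemorrhage for 32 (5.68%), all but Kif23, Kif2c, Melk, Ndc80, Racgap1 and Ttk.

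**Figure D4:**
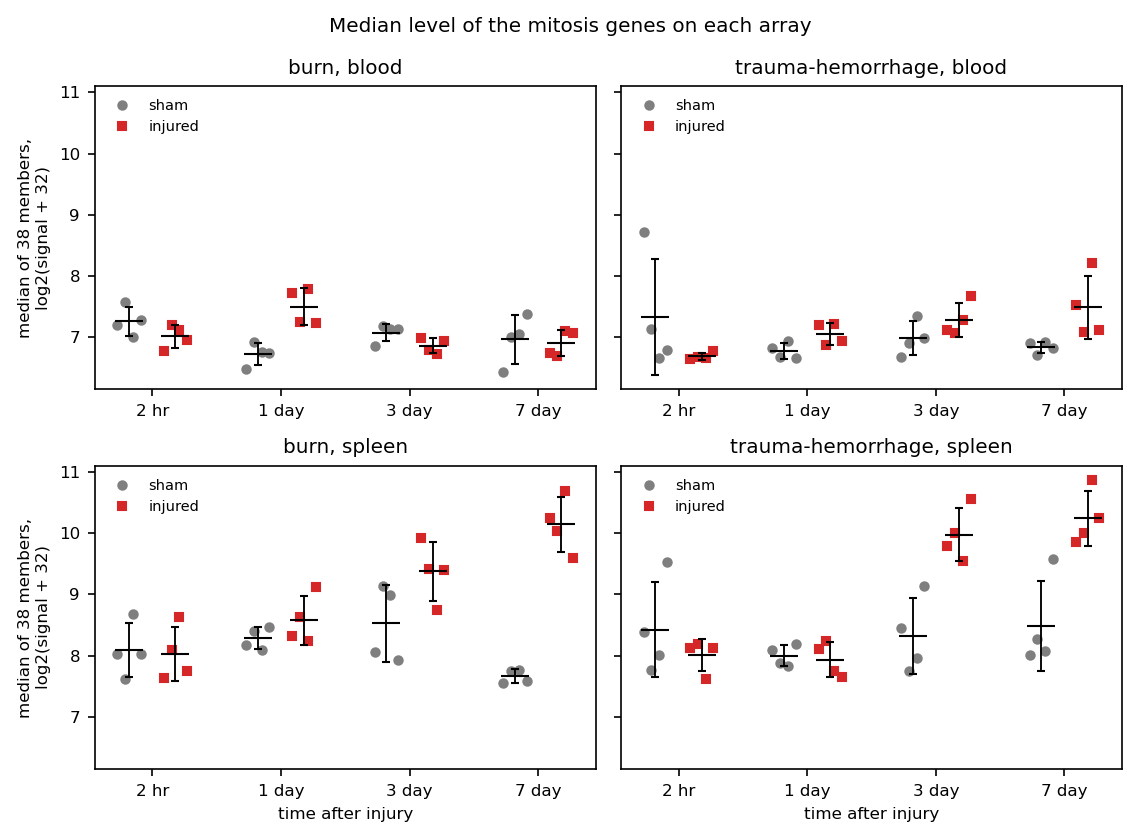
Median over the 38 members of log2(signal + 32) on each array, by tissue, model and time; gray circles are shams, red squares injured arrays, and black bars the mean ± SD of 4 arrays. In spleen, the injured arrays of 7 day lie between 9.60 and 10.9, above every sham array, and sham replicate 4 of the trauma-hemorrhage model stands above its group at 2 hr, 3 day and 7 day.

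Genes of blood-cell precursors also rose in the spleen where most members did, with fewer at 3 day than at 7 day after trauma-hemorrhage. At 7 day after burn 18 of 19 erythroid precursor genes rose, with a median change of 4.11, and their summed signal was 73064 to 126607 after burn and 6948 to 13712 in the shams. Of 12 neutrophil precursor genes 11 rose, with a median of 4.92 and sums of 63005 to 85532 against 2059 to 4525. At 7 day after trauma-hemorrhage 17 of the 19 erythroid and 11 of the 12 neutrophil precursor genes rose. Their sums were 63492 to 174087 against 8107 to 45284 for the erythroid genes and 39695 to 87872 against 2645 to 96724 for the neutrophil genes. At 3 day after trauma-hemorrhage 8 erythroid genes and 1 neutrophil precursor gene rose, with sums of 46362 to 80331 against 9431 to 48367 and of 13359 to 38839 against 4933 to 24483. The part of these cells in the members' rise was not tested.

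Lymphocyte markers went the other way. At 7 day after burn 7 of 9 B cell genes and 8 of 9 T cell genes fell, at 3 day after trauma-hemorrhage 3 and 6, and at 7 day 6 and 3. Among 7 germinal centre B cell genes and 9 plasma cell genes none rose in these 3 comparisons. Of 9 stem and progenitor genes 4, 2 and 3 rose, with Myb, a factor of blood progenitors, rising by 1.06, 1.19 and 1.16 in the same order. Of the 6 spleen sham arrays with the highest members' medians, 5 also had high erythroid sums. Sham replicate 4 of the trauma-hemorrhage model had sums of 73707 at 2 hr, 48367 at 3 day and 45284 at 7 day. The other shams of these groups had 7138 to 35805. In the burn model, sham replicates 2 and 3 of day 3 had 98008 and 76002, against 31216 and 13908 on the others. The members' medians on these 5 arrays were 9.53, 9.14, 9.57, 9.14 and 8.99. The exception was burn-model sham replicate 3 of 2 hr, with a median of 8.69 against 7.62 to 8.03 in its group and an erythroid sum of 26208 against 18397 to 35433.

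**Figure D5:**
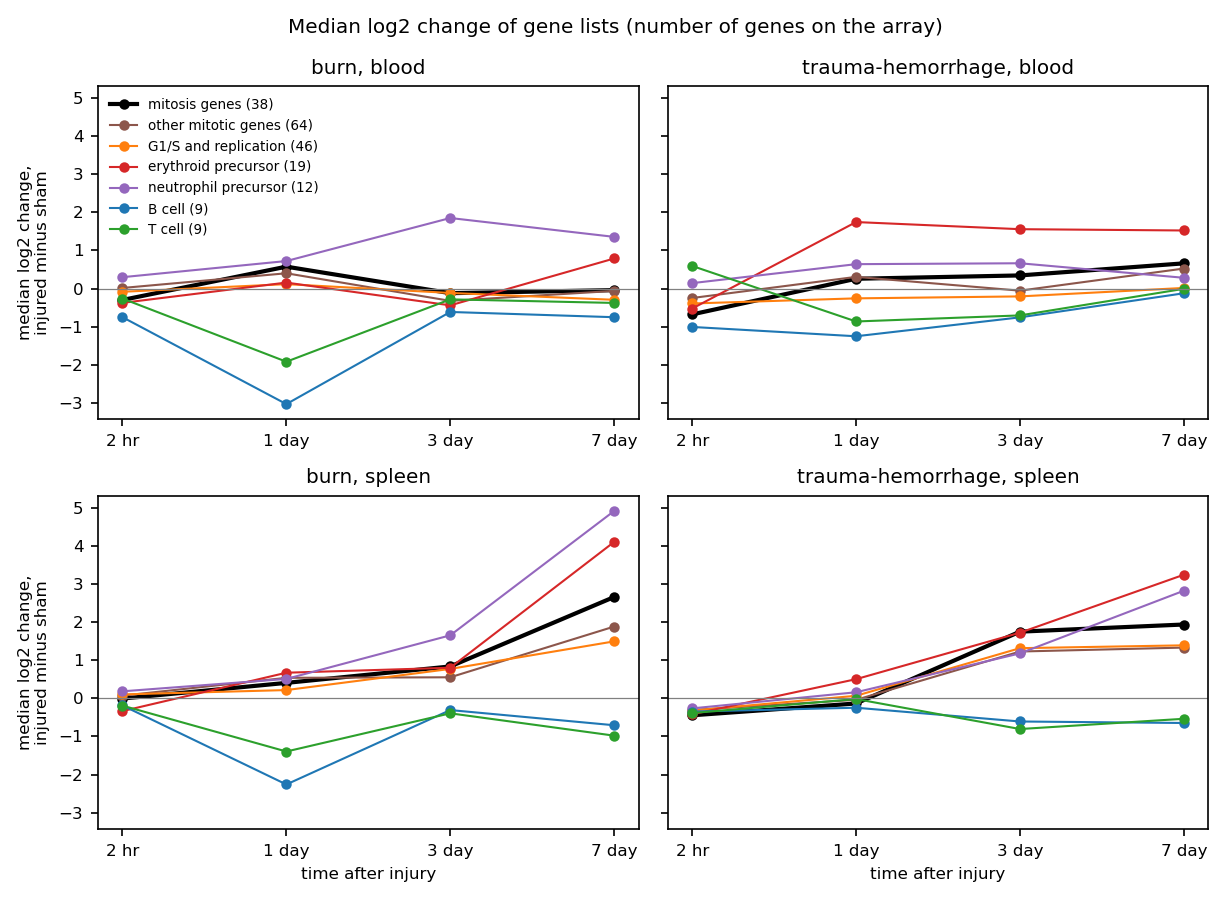
Median log2 change, injured minus sham, of the 38 mitosis genes and of 6 other gene lists over the 4 times, by tissue and injury; each point is a median over the genes in brackets, with 4 arrays a group. In spleen the mitosis genes, the other cell-cycle lists and both precursor lists stand above 1 at 7 day, while the B cell and T cell lists lie below 0.

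Other genes of the cell cycle rose with the members. Of 64 mitotic genes that are no members, 50 rose 7 day after burn, 33 rose 3 day and 42 rose 7 day after trauma-hemorrhage, with median changes of 1.88, 1.23 and 1.33 and none falling. Cks1b, a subunit that binds Cdk1, rose in all 3 (2.45, 1.61 and 1.70). Of 46 genes of the G1/S step and of DNA replication 39, 34 and 39 rose and none fell, with medians of 1.496, 1.32 and 1.39. Rrm2, which makes the building blocks of DNA, rose by 3.76 7 day after burn, Mcm3, a part of the replication helicase, by 1.47 3 day and Ccne1, the cyclin of the G1/S step, by 2.23 7 day after trauma-hemorrhage. At 3 day after burn, where no member passed, 3 of the G1/S genes rose, Ccne1 by 1.53, Cdt1, which loads the helicase, by 0.90 and Gins1, a helicase subunit, by 1.42.

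In blood, the members were changed in few cases. At 1 day after burn 7 rose and 1 fell, where 7.26% of all genes rose and 12.6% fell. Cenpf read 146, 179, 109 and 205 after burn and 6.00, 5.82, 10.8 and 41.9 in the shams (2.03 ± 0.50, adjusted p 0.00169). Cdk1 read 360.3, 339, 276 and 192 against 53.2, 89.2, 77.5 and 142 (1.42 ± 0.38, adjusted p 0.00392), and Cdca3 635, 266, 266 and 169 against 59.4, 34.3, 116 and 79.0 (1.73 ± 0.47, adjusted p 0.00398). The groups did not overlap for these 3 genes, nor for 8 further members whose burn arrays all lay above the shams, 11 in all against 10.5% of all genes.

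Birc5 rose by 2.09, Spc25 by 1.82, Tpx2 by 1.80 and Mki67 by 1.36 at this time, and Kif20a fell by 1.34, from signals of 25.0 to 101 in the shams to 2.94 to 10.4 after burn, levels below the offset. In the same samples 4 of 12 neutrophil precursor genes rose, with sums of 42756 to 46750.4 after burn and 3251 to 9581 in the shams, 8 of 9 B cell and 6 of 9 T cell genes fell, and no erythroid gene passed. Their part in the change was not tested. Of the 64 other mitotic genes 13 rose and 2 fell. All 8 other probe sets of the called members moved the same way, each by less than the one used, with a median log2 change of 0.45. Those of Cenpf, for one, changed by 0.49 and 0.42. Within the hybridization days the members' median change was 0.55 and 0.62, with 4 and 1 members called. At 2 hr, 3 day and 7 day after burn no member passed in blood (2.03%, 0.852% and 1.51% of all genes called), and 4, 2 and 4 members had an unadjusted p under 0.05, against 12.4%, 8.4% and 10.7% of all genes. The effect of burn in blood differed between the times for Cdk1, Cenpf and Tpx2, 3 of 38, where 10.8% of all genes did.

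After trauma-hemorrhage few members passed in blood. Ube2c rose at 1, 3 and 7 day and Mki67 at 3 and 7 day. At 2 hr only Tpx2 passed, and it fell, where 0.852% of all genes fell: it read 11.0, 7.81, 9.16 and 26.5 after injury and 1278, 190.3, 72.8 and 89.5 in the shams (-2.45 ± 0.57, adjusted p 0.00609). Its injured signals lie below the offset of 32, and the call was lost without sham replicate 1, while 4 members passed without sham replicate 3 and 5 without sham replicate 4. In sham replicate 1, the members' median of 8.72 stood above the 6.66 to 7.13 of the other shams, and on the first hybridization day, which held it, 8 members fell, against 0 on the second. Of the other 3 probe sets of Tpx2, 1 moved the same way. The erythroid sum of this sham group ranged from 44016 to 213758.

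At 1 day 4 members rose and none fell, where 5.52% of all genes rose. Ube2c read 14652, 2693, 17469 and 13674 after injury and 4248, 1015, 3283 and 1404 in the shams (2.20 ± 0.50, adjusted p 0.00204). Cdca8 read 325, 313, 864 and 600.2 against 136, 129, 218 and 127 (1.51 ± 0.42, adjusted p 0.0102), and Nusap1 19608, 5157, 20079.5 and 17176 against 11576, 724, 7963 and 3346 (1.80 ± 0.54, adjusted p 0.0177). Of these 3, only Cdca8 showed no overlap, since replicate 2 was low for Ube2c and Nusap1 in both groups. Cdca3 rose by 1.36. The number was 2 without injured replicate 1 or 3, with the control level as a covariate, or in a fit of the 8 arrays alone, and 1 on each hybridization day.

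At 3 day 6 members rose, where 3.62% of all genes rose and the median gene shifted by -0.14, and for 5 members every injured array lay above every sham, as for 3.11% of all genes. Mki67 read 6744, 4282, 2027 and 11820.0 after injury and 347, 472, 1302 and 481 in the shams (3.10 ± 0.39, adjusted p 4.29e-07). Cdca3 read 1375, 699.8, 314 and 1839 against 94.2, 89.5, 167 and 264 (2.38 ± 0.47, adjusted p 0.000755), and Ccna2 9774, 6203, 2357 and 13002 against 515, 1919.7, 3614 and 2092 (1.96 ± 0.47, adjusted p 0.00537). Injured replicate 3 was the lowest in each, and in Ccna2 it lay below the highest sham. That array was the only one of its group that was not dim. Without the 3 dim arrays only that injured array is left, so no count is given for that fit. With the control level as a covariate 2 members passed, and without injured replicate 4 or sham replicate 1, 2 did. Ccnb2 rose by 2.27, Birc5 by 2.18 and Ube2c by 1.58, and 1 of 3 other probe sets of these 6 members moved the same way. On the hybridization days 5 and 0 members rose.

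At 7 day 5 members rose and 1 fell, where 7.39% of all genes rose, 1.92% fell and the median gene shifted by 0.18. Mki67 read 786, 663, 1660.5 and 1257 after injury and 214, 245, 314 and 167 in the shams (2.01 ± 0.39, adjusted p 0.000795). Ccna2 read 4174, 4011, 5819.7 and 3482 against 548, 1062, 1067 and 1107 (2.20 ± 0.47, adjusted p 0.00185), and Ube2c 9870.3, 8808, 23156 and 10436 against 1275, 2604, 3229.6 and 3620.0 (2.25 ± 0.50, adjusted p 0.003). For these 3 genes every injured array lay above every sham, as for 7 members and for 7.51% of all genes. All 4 injured arrays were dim, and with the control level as a covariate no member passed. That level was 2.14 to 3.98 times its set's median after injury and 0.913 to 1.305 times in the shams. As the groups do not overlap, the parts of dimness and of injury cannot be told apart here. Nusap1 rose by 2.18 and Aurka by 1.17, Racgap1 fell by 1.42, and 3 members passed without injured replicate 3. On the hybridization days 0 and 2 members rose.

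Erythroid precursor genes rose in the same blood samples, 14, 11 and 10 of 19 at 1, 3 and 7 day after trauma-hemorrhage. Of 10 megakaryocyte and platelet genes 9, 4 and 0 rose. The sums of the erythroid genes were 104661 to 177793 against 38804 to 82261.5 at 1 day. These erythroid sums were 95879 to 361365 against 42765 to 176535 at 3 day, and 171256 to 326861 against 41814 to 82234 at 7 day. Of the 46 G1/S and replication genes 2 rose at each of these times and 9, 2 and 3 fell, and of the 64 other mitotic genes 3, 5 and 6 rose. The Gapdh ratio was 1.67 to 2.54 after injury and 2.51 to 3.31 in the shams at 1 day, 1.75 to 2.34 and 2.35 to 3.72 at 3 day, with no overlap, and 2.48 to 3.57 and 2.12 to 2.92 at 7 day. The part of erythroid cells and of RNA quality in the members' change was not tested. Mki67 (adjusted p 0.000208), Ube2c (0.0015), Nusap1 (0.0072), Ccna2 (0.0124) and Kif23 (0.0327) differed between the injuries in blood over the 4 times, 5 of 38 members where 15.3% of all genes did. Ube2c changed by -1.24, -0.71, -0.72 and 1.01 at the 4 times after burn, none of which passed, and by -1.33, 2.20, 1.58 and 2.25 after trauma-hemorrhage. The trauma-hemorrhage effect differed between the times for 9 members, where 7.23% of all genes did: Mki67, Ube2c, Ccna2, Ccnb2, Tpx2, Cdca3, Nusap1, Cdca8 and Birc5.

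The effect of injury differed between the tissues for most members after burn. The burn effect in the spleen minus that in blood passed for 28 of 38 members, where 13.5% of all genes did. The labels do not say which spleen and blood arrays share a mouse, and the fit took all arrays as independent. After trauma-hemorrhage 7 passed, where 5.18% of all genes did: Cdc20 (adjusted p 0.00948), Mad2l1 (0.023), Racgap1 (0.0289), Ect2, a trigger of the contractile ring (0.0346), Cdca8 (0.0353), Bub1b (0.0437) and Cdk1 (0.0469). Cdc20 changed in blood by -0.06, 0.24, -0.94 and 0.36 at the 4 times after trauma-hemorrhage, with no call. The number for trauma-hemorrhage ranged from 2 to 13 over the other settings.

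The sham levels differed between the tissues. Over the sham arrays of all times, 31 of 38 members were higher in the spleen than in blood in each model, where 25.5% and 25.8% of all genes were, and 2 were lower, Nusap1 and Ube2c, where 9.17% and 9.55% were. In the burn model Nusap1 differed by -2.36 and Ube2c by -2.06, spleen minus blood, and Birc5 by 2.29, Tpx2 by 1.98 and Mki67 by 1.92. The median change was 1.03 in the burn shams and 1.32 in the trauma-hemorrhage shams, against 0.19 and 0.14 over all genes. In blood 20 of the 38 members had a mean sham signal below 100, and in spleen 5 did.

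No member passed after LPS at either time, and none of the 64 other mitotic genes did. At 2 hr 0.819% of all genes were called, and 4 members had an unadjusted p under 0.05, as did 12.5% of all genes. At 1 day 0 genes were called at all, with 5 members and 11.3% of all genes at an unadjusted p under 0.05. Spc25 had the largest change at both times. It read 74.2, 27.4, 59.1 and 39.6 at 2 hr after LPS and 412, 104, 122 and 101 in the shams (-1.23 ± 0.34, adjusted p 0.11), and 142, 191, 165 and 229 at 1 day against 109, 50.6, 54.1 and 38.5 (1.20 ± 0.34, adjusted p 0.291). The groups of Spc25 did not overlap at either time. At 2 hr it was the 1 member with every LPS array below every sham, as for 3.7% of all genes, and at 1 day Spc25, Kif11 and Kif20a, 3 members, had every LPS array above every sham, as for 3.03% of all genes. The Gapdh ratio was at most 1.54 at 2 hr after LPS and 1.62 to 2.01 in the shams. Without sham replicate 4 of 2 hr, which went against its label, the count of members stayed 0. The LPS effect differed from that of burn for Cenpf (adjusted p 0.0131), Tpx2 (0.025) and Kif20a (0.0409), 3 members where 14.8% of all genes did, and from that of trauma-hemorrhage for Tpx2 (0.0177) and Ube2c (0.0379), 2 members where 4.04% did.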

How the data were processed

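RNA of white blood cells and spleen cells was measured on Affymetrix mouse arrays. The submitters' processing notes name MAS5 and GCOS 1.4 for the deposited intensities. The blood and spleen arrays had a trimmed mean (2% off each end) of 500, and the LPS arrays, deposited at 121 to 140.6 with no scaling stated, were brought to 500 here. Of 45101 probe sets, 34945 had 1 gene, 932 several and 9160 none listed, and 18031 of 18193 genes matched the reference by gene ID. log2(signal + 32) was fitted with limma 3.58.1 in R 4.3.3 (group means, trended variance) over the 64 blood, 64 spleen or 16 LPS arrays and adjusted by Benjamini-Hochberg over all genes. The shams of each model, tissue and time were the controls, and differences between times and injuries were contrasts in these fits. Tissues were compared in a fit of both tissues of a model, and LPS with injury in a fit of all blood arrays. Spleen and blood arrays were taken as independent, since the labels do not say which share a mouse. Promoters and figures were made with Python 3.11.15. The members and lists were chosen with earlier results of these data known. Values of every array are given for the 3 called members with the smallest p in a comparison and, in the spleen 7 day after burn, for a set of examples of the roles, and of other lists at most 3 called genes with the smallest p are named. Same-numbered replicates of an injured group and its sham group were not paired, since in no comparison did all of their correlations exceed 0.1. Hybridization days (replicates 1 and 2 against 3 and 4) were known for burn and trauma-hemorrhage and not for LPS. The procedure was tested on simulated data. Alternatives were other offsets, a filter on low genes, the mean of all probe sets, quantile normalization, blocks, the control level as a covariate and fewer arrays.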

Additional observations from a re-analysis of the deposited data

Results flagged for a closer look

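The members' median level, in log2(signal + 32), had 1 array apart from the other 3 of its group in 3 of the 36 groups, by Dixon's test at the 95% level, which chance alone flags in about 1 of 20 groups. These arrays were replicate 3 of the LPS shams at 1 day, with 6.83953 against 7.08 to 7.11, replicate 3 of the trauma-hemorrhage spleens at 2 hr, with 7.62224 against 8.12 to 8.19, and replicate 1 of the burn-model blood shams at 3 day, with 6.85778 against 7.13 to 7.17. No member was called in the comparison of each of these groups with its own sham or treated group, and the groups also enter tests across times, tissues and arms that called members.

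The effect differed between times, injuries, tissues or arms by a test of the difference itself in each of these cases. Between times, it differed for 3 members after burn and 9 after trauma-hemorrhage in blood, and for 36 and 32 in spleen. Between burn and trauma-hemorrhage it differed for 5 members in blood and for 1, Nuf2, in spleen. Between spleen and blood it differed for 28 members after burn and 7 after trauma-hemorrhage. The LPS effect differed from that of burn for 3 members and from that of trauma-hemorrhage for 2. In 4 of these tests the share of members was below that of all genes: burn over time in blood (7.89% of members, 10.8% of all genes), burn against trauma-hemorrhage in blood (13.2% and 15.3%) and in spleen (2.63% and 13.8%), and LPS against burn (7.89% and 14.8%). In the others it was 23.7% of members and 7.23% of all genes for trauma-hemorrhage over time in blood, 94.7% and 36.2% for burn and 84.2% and 5.68% for trauma-hemorrhage over time in spleen, 73.7% and 13.5% between the tissues after burn, 18.4% and 5.18% after trauma-hemorrhage, and 5.26% and 4.04% for LPS against trauma-hemorrhage.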

How the results depend on the processing

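Counts of members called are given, first under another setting. With the mean of all probe sets, 1 member differed between LPS and burn, 1 between LPS and trauma-hemorrhage, 2 between burn and trauma-hemorrhage in spleen, 1 over time after burn in blood and 4 between the tissues after trauma-hemorrhage; 11 passed in spleen 1 day after burn and 0 in blood 2 hr after trauma-hemorrhage. Quantile normalization gave 1 for LPS against trauma-hemorrhage, 8 for spleen 1 day after burn and 2 for blood 2 hr after trauma-hemorrhage. That last comparison also gave 2 with the filter on low genes, with hybridization day as a block, with an offset of 1 and without dim arrays. Burn against trauma-hemorrhage in spleen gave 2 with the filter and 0 with the day block or an offset of 100, and the tissues after trauma-hemorrhage 2 with an offset of 1 and 13 with 100. Fits of the 8 arrays alone gave, in blood, 4 and 2 at 2 hr and 7 day after burn and 0, 2 and 3 at 2 hr, 1 day and 3 day after trauma-hemorrhage, and, in spleen, 7 and 1 at 1 and 3 day after burn and 20 at 7 day after trauma-hemorrhage. With the control level as a covariate, blood at 1, 3 and 7 day after trauma-hemorrhage gave 2, 2 and 0. At 7 day that level went with the injury, and their parts cannot be told apart. Without dim arrays, 3 day kept only 1 injured array, and no count is given. The 7 day blood group could not be fitted without its dim arrays, since all 4 were dim. The causes were not tested.

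Leaving out 1 array at a time gave 35 to 37 members in spleen 7 day after burn, 18 to 31 and 26 to 35 at 3 and 7 day after trauma-hemorrhage, and 2 to 5 at 1 day after burn. In blood it gave 6 to 9 at 1 day after burn, and 0 to 5, 2 to 4, 2 to 9 and 3 to 7 at the 4 times after trauma-hemorrhage. Over time it gave 1 to 4 and 7 to 12 in blood after burn and trauma-hemorrhage, and 32 to 36 and 29 to 33 in spleen. Between injuries it gave 4 to 6 in blood and 0 to 4 in spleen, between tissues 25 to 34 after burn and 2 to 9 after trauma-hemorrhage, for LPS against burn 2 to 3 and against trauma-hemorrhage 1 to 3. The sham tissues gave 31 to 34 and 33 to 34. The comparisons with 0 members stayed at 0. With the replicate block the counts were 37, 30 and 32 in spleen 7 day after burn and 3 and 7 day after trauma-hemorrhage, 6 at 1 day after burn, and within 1.5 times the count without it elsewhere. Over all other settings, called genes gave 4776 values, most of them from fits with 1 array left out. Of these values, 4546 kept their call, 230 lost it and 0 reversed. Signals below the offset of 32 have compressed changes, and 20 members lay below 100 in sham blood.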

Other observations

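Genes that hold the cell cycle back moved in both directions in the spleen. Of 22 inhibitor and quiescence genes, 4 rose and 2 fell 7 day after burn, with a median log2 change of 0.07. Gadd45a, a stress-induced inhibitor, rose by 1.89 and Cdkn2c, an inhibitor of the G1 kinases, by 1.88, while Foxo1, a factor of resting lymphocytes, had a change of -1.07 (limma, adjusted p 0.000182). At 7 day after trauma-hemorrhage Gadd45a rose by 1.57 and Foxo1 changed by -0.71, and at 3 day Foxo1, with -0.71, was the 1 gene of this list that passed. Among stem and progenitor genes, Gata2, a factor of early blood progenitors, rose by 1.21 7 day after burn and by 1.42 3 day after trauma-hemorrhage, and Cd34, a progenitor surface protein, by 1.54 and 1.80 at 7 day after burn and trauma-hemorrhage.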
